A study of Mus musculus with 7 samples.

Results

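The data described here are the 3' end RNA-seq counts of the lineage-negative (lin-) bone marrow of wild type mice, the 3 libraries labelled genotype WT among the 7 of the series. The mice were the *Hrp2*+/+ animals of a C57BL/6N line in which a tm1b allele of *Hdgfrp2* (listed as *Hdgfl2*) segregates, aged 6 to 8 weeks. Marrow was harvested from femur and tibia, red cells were lysed, and cells carrying antigens of mature lineages were removed with a magnetic mouse progenitor kit. The labels name no treatment and number the mice as biological replicates 1 to 3. Values are given as CPM, the reads of a gene per 1000000 reads on all genes of the library, with the ribosomal RNA precursor *Rn45s* left out. Because the library kit yields 1 fragment near the poly(A) end of each transcript, CPM was not divided by transcript length. It is read as the level per transcript, also between genes. That reading does not hold for every gene, since some that every cell uses, such as *Gapdh*, were listed at or near 0.

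Lineage depletion leaves the marrow cells that have not yet acquired the surface antigens of mature blood cells. Among them are rare stem cells, the larger pools of dividing myeloid, erythroid, megakaryocyte and lymphoid progenitors, and maturing cells that carry too little antigen to be caught. Granule proteins of neutrophils are made in waves, with the primary (azurophil) granule enzymes transcribed at the promyelocyte stage and the secondary and later granule proteins transcribed as division ends. In bulk RNA, fewer cells of a type and less RNA per cell cannot be told apart.

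The 3 libraries held 4490287, 3902546 and 3525665 reads on genes in replicates 1, 2 and 3, of which *Rn45s* took 11.8%, 20.6% and 9.43%. A floor of 3 reads corresponded to between 0.758 and 0.969 CPM and covers counting error only. Of 25033 gene symbols, 12424 had a read in all 3 libraries and 9883 in none. Across the 8234 genes at 10 CPM or more in every mouse, Pearson's r of log2 CPM was 0.973 between replicates 1 and 3, 0.961 between replicates 1 and 2 and 0.953 between replicates 2 and 3, taken over genes, which are not independent replicates. Replicate 2, the library with the largest *Rn45s* share, lay farthest from the median of the mice in 43.5% of these genes, against 25.97% for replicate 1 and 30.5% for replicate 3. Each pair differed by more than counting noise, so no library was treated as a duplicate of another.

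The lin- marrow transcriptome was broad, and its top was made of housekeeping genes and *Mpo*. At 10 CPM or more in every mouse stood 8234 genes, of which 1921 reached 100 CPM and 85 reached 1000 CPM. The 10 highest genes of a library held 5.90% ± 0.362 (SD, n = 3) of its CPM and the 100 highest held 21.9% ± 0.413. The smallest number of genes that held 50% of the CPM was 743, 761 and 797 in replicates 1, 2 and 3. The membership of the top was stable between mice, with 84 genes among the 100 highest in all 3 libraries. Protein coding genes took 98.0% to 98.2% of the CPM and long noncoding RNA genes took 1.02% to 1.18%.

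*Actb*, which encodes cytoplasmic beta-actin, was the highest gene, at 11886, 13929.6 and 11785 CPM in replicates 1, 2 and 3 (12534 ± 1209.9, SD, n = 3). *Mpo*, the gene of myeloperoxidase on chromosome 11 from 87793581 to 87804413 of GRCm38, came next, with 7838, 6253 and 5939.9 CPM (6677 ± 1018). *Mpo* was the only gene of a cell lineage among the 10 highest. The other 8 were the ribosomal protein genes *Rplp1*, *Rps14*, *Rps20*, *Rplp2*, *Rps21* and *Rps24*, the actin-sequestering thymosin gene *Tmsb4x*, and *Rack1*, whose product sits on the small ribosomal subunit. Of these 8, *Rack1* varied most, with 3696, 5398 and 3091 CPM, and *Rps21* least, with 4606, 4558 and 4354 CPM.

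Outside the lists of housekeeping genes, the 25 highest genes were led by *Mpo*, *S100a8* and *Jchain*. *S100a8*, which encodes a calcium-binding subunit of calprotectin, followed *Mpo* with 3679.6, 2258 and 5939 CPM, and its partner subunit gene *S100a9* had 3111, 4089 and 3845 CPM. *Jchain*, the joining chain of secreted immunoglobulins, stood at 3838, 3031 and 4939 CPM (3936 ± 958). *Plac8*, a gene abundant in myeloid and plasmacytoid cells, had 3974, 2004 and 4514 CPM, and replicate 2 was the low mouse for *S100a8*, *Jchain* and *Plac8* alike. The class I antigen presentation genes *B2m* (3262 ± 1015 CPM), *H2-K1* (2277 ± 547 CPM) and *H2-D1* (1557 ± 109 CPM) were all among the 25, and for *B2m* and *H2-K1* replicate 2 was the high mouse. The basophil protease gene *Prss34*, the eosinophil granule gene *Prg2*, the cell cycle kinase gene *Cdk6*, the transcription factor gene *Irf8*, the monocyte surface gene *Ly6c2* and the granule protease gene *Prtn3* were the other genes of a lineage or progenitor state in this group. The remainder included the antioxidant gene *Gpx1* (2817 CPM), the lysosomal gene *Psap* (1791 CPM), the RNA-binding protein gene *Serbp1* (1885 CPM), *Serinc3*, *Ptma*, *Chchd2*, *Tubb5* and the nuclear noncoding RNA *Malat1*.

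**Figure D1:**
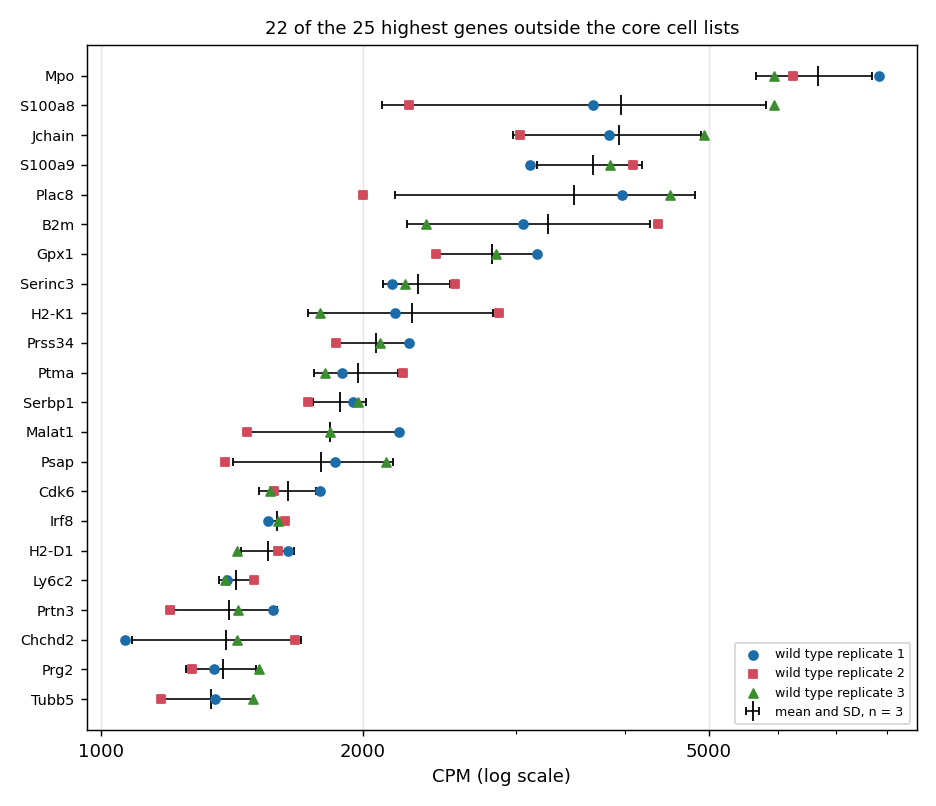
CPM of 22 of the 25 highest genes outside the housekeeping lists, on a log axis, with a point for each wild type mouse and a bar for the mean and SD (n = 3). *Mpo* lies between 5939.9 and 7838 CPM, while *S100a8* runs from 2258 to 5939 CPM and *Irf8* only from 1558 to 1629 CPM.

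The list of 13 primary granule and promyelocyte genes summed to 14134, 11473 and 11563 CPM in replicates 1, 2 and 3 (12389.9 ± 1511, SD, n = 3), or 1.24% of all CPM, and 12 of its 13 genes stood at 10 CPM or more in every mouse. *Mpo*, which makes hypochlorous acid in the phagosome, held 53.9% of the sum. The serine protease genes *Prtn3* (proteinase 3), *Ctsg* (cathepsin G) and *Elane* (neutrophil elastase) followed at 1575, 1199.7 and 1436 CPM, 1218, 1012 and 1101 CPM and 956, 576 and 776 CPM. For all 3 protease genes replicate 2 was the lowest mouse and replicate 1 the highest. *Srgn*, the proteoglycan that packs granule proteins, had 725 ± 91.7 CPM. *Ms4a3*, a membrane gene of granulocyte and monocyte progenitors, ran the other way, with 396, 651 and 318 CPM and replicate 2 as the highest mouse. Of the 13 genes 10 were highest in replicate 1 and none was lowest there, where 26.2% of the 8857 genes of mean 10 CPM or more were highest in that mouse.

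A TATA box, the sequence that positions the transcription start, was found in the promoter windows of 3 of 10 primary granule genes that had a window in the RefSeq promoter table (GRCm38.p6), against 5.13% of all 18327 genes with a window and 2.30% of those at 10 CPM or more in every mouse. Other lists also held it, with 4 of 12 long noncoding RNA genes and 4 of 17 monocyte genes. The letters searched were TATAA on the gene's strand between 45 and 16 bases before the start. The windows of *Prtn3* (chr10:79879557-79879676, plus strand) and *Elane* (chr10:79886202-79886321, plus strand), neighbours on chromosome 10, are shown as the highest members whose only window holds the motif. Each runs from 110 bases before the start to 10 bases after it, 5' to 3', with the TATA letters in capitals.
Prtn3: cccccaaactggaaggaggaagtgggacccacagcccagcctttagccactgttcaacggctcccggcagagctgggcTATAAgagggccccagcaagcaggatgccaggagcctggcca
Elane: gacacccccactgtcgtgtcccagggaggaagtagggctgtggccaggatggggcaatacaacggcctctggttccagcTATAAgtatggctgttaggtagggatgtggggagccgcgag
The motif began at position -32 in *Prtn3* and -31 in *Elane*. The motif GAGGAA, bound by PU.1 and searched on both strands of the 300 bases, was in 6 of 10 windows of the list, against 30.3% of all genes. It was as frequent in lists that are not myeloid, with 13 of 21 T, natural killer and innate lymphoid genes and 9 of 16 early B genes. A match of letters is a description of sequence and not a binding site.

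The 24 secondary and late neutrophil granule genes summed to 10819.7, 11776 and 15110.4 CPM (12569 ± 2252, SD, n = 3). *S100a8* alone held 31.5% of it, and *S100a8*, *S100a9* and *Ngp* together 71.05%. Calprotectin, which the S100 pair encodes, is known as a cytosolic protein and not as a granule protein. *Ngp* (neutrophilic granule protein) had 990.1, 1501 and 1376 CPM and *Camp*, the cathelicidin gene, had 785, 1278 and 1021 CPM. The secondary granule genes *Ltf* (lactoferrin) and *Lcn2* (lipocalin 2), named after their values were seen, stood at 256 ± 68.6 and 239 ± 70.2 CPM. In *Ngp*, *Camp*, *Ltf* and *Lcn2* replicate 2 was highest and replicate 1 lowest, whereas *S100a8* was highest in replicate 3 and lowest in replicate 2. The oxidase subunit genes *Cybb* and *Ncf1* had 399 ± 94.4 and 352 ± 38.9 CPM. At the mature end, *Cxcr2*, the chemokine receptor gene of neutrophils leaving the marrow, also named after its values were seen, had only 7.83, 8.72 and 23.8 CPM and *Ly6g* 38.6, 47.1 and 36.01 CPM. Of the 22 members of mean 10 CPM or more, 11 were highest in replicate 3 and 10 in replicate 2, beside 37.3% and 36.6% of all genes of that level, and 13 were lowest in replicate 1, beside 2800 of 8857 genes.

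The transcripts of the calprotectin subunits differed in proportion between mice. The *S100a8* to *S100a9* ratio of CPM was 1.18, 0.552 and 1.54 in replicates 1, 2 and 3. The spread between mice beyond counting, as a CV, was 46.9% for *S100a8* and 13.8% for *S100a9*. This ratio was computed after the values were seen, and neither gene shares a 75-base stretch of its last 300 bases with another gene in GENCODE M21.

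The summed levels of the primary and late lists were similar on average, in an order that differed between mice. The log2 ratio of primary over late granule sums was 0.39, -0.04 and -0.39 in replicates 1, 2 and 3, a mean of -0.01 ± 0.39 (SD, n = 3). Its sign depended on the mice, since it was 0.17 without replicate 3. Without *Mpo* and *S100a8* it was -0.58, with *S100a9* left in the late sum. Neither product of *S100a8* (3959 CPM) and *S100a9* (3682 CPM) is known as a granule protein. The similar level of the lists depends on this pair, which the late sum of 12569 CPM includes. With 3 mice the smallest p that a two-sided exact sign-flip test allows is 0.25, and no ratio was tested.

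Monocyte genes formed a steady sum, although its members varied. The 20 genes of the list summed to 7631, 7243 and 7964 CPM (7612 ± 361, SD, n = 3), and 3 genes, *Psap*, *Irf8* and *Ly6c2*, held 63.3% of it. *Psap*, which encodes the saposin precursor and is active in most cells, had 1859.5, 1388 and 2125 CPM. *Ly6c2*, an antigen of monocytes and their progenitors, had 1398, 1501 and 1389 CPM. The lysosomal protease gene *Ctss*, the membrane gene *Ms4a6c* and the calcium-binding protein gene *S100a4* followed with 423, 408 and 319 CPM. Genes of maturing monocytes in the list, named after their values were seen, differed widely. The chemokine receptor genes *Ccr2* and *Cx3cr1* stood at 161 ± 29.8 and 159 ± 17.3 CPM, the Fc receptor gene *Fcgr3* at 149.6 ± 25.96 CPM and the galectin gene *Lgals3* at 134 ± 25.01 CPM, while *Cd14* had 8.77 ± 2.32 CPM and *Fcgr1* 4.28 ± 3.11 CPM. The 20 resident macrophage genes together reached 806 ± 27.04 CPM, and the monocyte sum exceeded them by a log2 ratio of 3.24 ± 0.08 (SD, n = 3). The macrophage list was led by *Vcam1* (218 CPM), an adhesion gene also used by stroma, and *Apoe* (181 CPM), followed by the iron exporter gene *Slc40a1*, *Cd68*, the complement gene *C1qa* and the receptor gene *Axl*, at 57.9, 55.01, 51.5 and 41.1 CPM.

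Basophil protease genes were prominent, and of the eosinophil genes only *Prg2* was high. The list of 28 eosinophil, basophil and mast cell genes summed to 6295, 5943 and 6078 CPM (6105 ± 178, SD, n = 3), an SD of 2.91% of the mean. *Prss34*, a basophil protease gene on chromosome 17 from 25298394 to 25300165, had 2258, 1864 and 2096 CPM. *Prg2*, the eosinophil major basic protein gene, had 1348, 1272 and 1521 CPM, and the basophil protease gene *Mcpt8* had 981, 1024 and 802 CPM. The carboxypeptidase gene *Cpa3* and the histamine synthesis gene *Hdc* stood at 429 ± 45.4 and 367 ± 31.7 CPM, with the receptor chains *Ms4a2* and *Fcer1a* of the IgE receptor at 145 and 75.8 CPM. Markers of tissue mast cells were at or near 0: *Mcpt4* and *Tpsb2* had no read in any library, *Tpsab1* had 0.0842 CPM and *Cma1* 0.528 CPM on average. Of the other eosinophil genes, *Epx* (eosinophil peroxidase) had 34.95 ± 4.31 CPM and *Il5ra* 1.80 ± 1.03 CPM. *Tpsab1*, *Cma1*, *Epx*, *Il5ra*, *Ms4a2* and *Fcer1a* were named after their values were seen.

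The 25 MHC class II and dendritic cell genes summed to 2949.6, 3746 and 3042 CPM (3246 ± 436, SD, n = 3), and several of its leading genes are known from plasmacytoid dendritic cells, the interferon-producing dendritic lineage. *Tcf4*, the E protein that defines this lineage, had 522, 762 and 579 CPM, *Ly6d* 335, 403 and 332 CPM, the lectin gene *Siglech* 197, 369.7 and 258 CPM and *Runx2* 222, 243 and 232 CPM. For all 4 of these genes replicate 2 was the highest mouse, as it was for 14 of the 21 members of mean 10 CPM or more, against 3238 of 8857 genes. The class II genes *H2-Aa* and *H2-Ab1* had 249 ± 28.9 and 182 ± 51.6 CPM. Genes of conventional dendritic cells, chosen after their values were seen, were lower, with *Clec9a* at 18.7 ± 4.55 CPM, *Batf3* at 7.83 ± 0.491, *Xcr1* at 5.45 ± 3.28 and *Zbtb46* at 2.95 ± 1.17 CPM.

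*Jchain* is transcribed in plasma cells and in plasmacytoid dendritic cells, and it stood above every gene of the lymphoid lists. Genes of antibody secretion were looked at beside it after its level had been seen. The chaperone gene *Mzb1*, shared by the same 2 cell types, had 208, 249 and 197 CPM, and the secretory factor gene *Xbp1* had 432, 305 and 433 CPM. The plasma cell genes *Sdc1*, *Derl3* and *Tnfrsf17* had 64.1 ± 3.76, 25.7 ± 6.30 and 18.8 ± 7.58 CPM. The immunoglobulin constant region genes *Ighm* and *Ighd* were not analysed here.

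Early B lineage genes were low and differed between mice. The 22 genes summed to 809, 1129.99 and 1097 CPM (1012 ± 177, SD, n = 3). *Dntt*, the terminal transferase of lymphoid progenitors, led with 202, 198 and 216 CPM and differed little between mice, as did the coactivator gene *Pou2af1* with 132, 116 and 126 CPM. *Cd74*, the class II invariant chain also made by dendritic cells, had 133, 137 and 65.8 CPM, and *Spib*, *Il7r* and *Cd79b* had 99.5, 74.02 and 69.2 CPM. Genes that mark commitment to the B lineage were lower still. *Pax5*, its commitment factor, had 9.09, 54.2 and 61.7 CPM and *Ebf1*, the factor above it, 1.77, 13.9 and 24.4 CPM, with replicate 1 below both other mice by a wide margin. The same held for *Rag1* (2.78, 20.3 and 21.6 CPM) and the surrogate light chain gene *Vpreb1* (10.4, 44.2 and 37.9 CPM), which were named after their values were seen. Of the 17 list members of mean 10 CPM or more, 14 were lowest in replicate 1, against 31.6% of all genes of that level.

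T, natural killer and innate lymphoid genes summed to 2094, 2057 and 2002 CPM over 28 genes (2051 ± 46.3, SD, n = 3), the steadiest of the lineage sums. The highest included genes of cytotoxic and natural killer cells. The granule gene *Nkg7*, which granulocyte progenitors also transcribe, had 341 ± 37.1 CPM, the regulator gene *Id2* 296 ± 24.6 CPM, the IL-2 receptor gene *Il2rb* 280.5 ± 20.2 CPM, the chemokine gene *Ccl5* 276 ± 35.8 CPM and the receptor gene *Klrd1* 79.02 ± 7.45 CPM. *Lck*, the kinase of the T cell receptor, had 78.1 ± 15.7 CPM, and *Gata3* and *Tcf7*, regulators of T and innate lymphoid fate, had 34.98 ± 4.70 and 40.3 ± 10.9 CPM.

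Erythroid genes were low beside the granulocytic lists and varied between mice. The 37 listed genes summed to 1223, 2016 and 1591 CPM (1610.1 ± 397, SD, n = 3). The highest were genes that other dividing cells also use, the transferrin receptor gene *Tfrc* (256, 446 and 312 CPM), the peroxiredoxin gene *Prdx2* (263, 297 and 259 CPM) and the mitochondrial iron importer gene *Slc25a37* (173, 226 and 162 CPM), followed by the carbonic anhydrase gene *Car2*, the water channel gene *Aqp1* and the heme synthesis gene *Urod* at 129 ± 34.4, 83.01 ± 42.99 and 58.9 ± 11.8 CPM. *Gata1*, the master regulator of red cells, had 13.6, 24.9 and 25.4 CPM and *Klf1*, which acts after it, 3.03, 9.36 and 8.77 CPM. The red cell membrane gene *Slc4a1* (band 3), named after its values were seen, had 17.4, 68.8 and 50.7 CPM. Replicate 1 was lowest for 18 of the 25 members of mean 10 CPM or more and highest for none, and replicate 2 was highest for 18, where 31.6% of all genes of that level were lowest in replicate 1 and 36.6% highest in replicate 2. Primary granule genes exceeded erythroid genes by a log2 ratio of 2.97 ± 0.52 (SD, n = 3) of the sums, positive in all 3 mice. The erythroid sum holds nothing from the 6 hemoglobin genes, the main transcripts of maturing red cells, which were listed at 0, so the sum and the ratio cover only the other genes of the list.

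The hemoglobin genes at 0 in all 3 libraries were *Hba-a1*, *Hba-a2*, *Hbb-bs*, *Hbb-bt*, *Hbb-b1* and *Hbb-b2*. Genes that every cell uses were also at or near 0, among them the ribosomal protein gene *Rpl26* and the respiratory chain gene *Ndufs5* with no read, and the glycolytic gene *Gapdh*, named after its values were seen, with 0, 5 and 2 reads, so a value of 0 in these files does not measure absence. Of all 75-base stretches in the last 300 bases of the gene's transcripts in GENCODE M21, the share found in another gene's transcripts was 73.9% for *Gapdh*, 61.4% for *Rpl26*, 37.9% for *Ndufs5*, 66.8% for *Hba-a1*, 64.8% for *Hbb-bs*, 29.2% for *Hbb-bt* and 100% for the homeobox gene *Adnp*, also listed at 0. A high share did not always go with a low value, since the ribosomal protein genes *Rpl36a*, *Rps27a* and *Rps12*, named after their values were seen, shared 100%, 85.4% and 85.02% and stood at 1931, 959 and 643 CPM. For the platelet genes *Tubb1* and *Gp6*, which had no read, the share was 0. The part of such shared ends in the zeros was not tested.

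GATAAG, the letters bound by GATA factors, occurred in the promoter windows of 11 of 26 erythroid genes and 5 of 19 megakaryocyte genes, against 7.88% of all genes, counted on both strands of the 300 bases. *Rhd* (chr4:134864426-134864545, plus strand) encodes the Rh blood group protein and *Icam4* (chr9:21029322-21029441, plus strand) an adhesion protein of red cells, and they are shown as the highest erythroid genes whose only window holds the motif in the 120 bases printed. Capitals mark GATAAG or, in *Icam4*, its reverse complement.
Rhd: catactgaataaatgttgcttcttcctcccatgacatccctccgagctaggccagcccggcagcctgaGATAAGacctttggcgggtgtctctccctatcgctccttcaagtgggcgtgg
Icam4: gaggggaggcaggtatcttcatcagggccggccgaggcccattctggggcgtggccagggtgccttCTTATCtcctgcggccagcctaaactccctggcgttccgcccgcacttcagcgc
The motif lay at position -42 in *Rhd* and -44 in *Icam4*. In CPM, *Rhd* stood at 16.7, 58.8 and 65.1 and *Icam4* at 17.7, 21.6 and 22.2 in replicates 1, 2 and 3, so that replicate 1 was the lowest mouse for both.

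The 27 megakaryocyte and platelet genes summed to 1298, 1351 and 1019 CPM (1223 ± 178, SD, n = 3). The erythroid to megakaryocyte log2 ratio of the sums was 0.38 ± 0.40 and was below 0 in replicate 1. *Fli1*, an ETS factor shared with endothelium and stem cells, took 30.1% of the sum with 333, 527 and 245 CPM. The platelet chemokine gene *Pf4*, the integrin gene *Itga2b* (CD41), *Plek*, the transcription factor gene *Nfe2* and the thrombin receptor gene *F2r* followed at 157, 138, 128, 95.1 and 76.1 CPM. For *Pf4* the values were 219, 120.4 and 132 CPM, with replicate 1 as the high mouse. Of the 27 genes 4 reached 100 CPM in every mouse, beside 1921 of all 25033 symbols.

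Stem and progenitor genes summed to 9204, 9086 and 8005 CPM over 46 genes (8765 ± 661, SD, n = 3). *Cdk6*, the kinase that governs exit from quiescence in blood progenitors, led with 1784, 1581 and 1563 CPM, followed by *Ly6e* (933 ± 134 CPM), *Myb* (787 ± 56.6 CPM), the complement receptor homologue gene *Cd93* (641 ± 25.6 CPM) the redox regulator gene *Txnip* (596 ± 139.8 CPM) and the immediate-early gene *Egr1* (532 ± 236 CPM). Progenitor surface genes were well above the floor, with *Kit* at 140.4, 115 and 134 CPM and, named after their values were seen, *Cd34* at 239, 320.3 and 228 CPM and *Flt3* at 54.04, 69.1 and 66.1 CPM. Genes that are most restricted to long-term stem cells, chosen after their values were seen, were low: *Procr* had 5.32 CPM, *Mecom* 4.82, *Slamf1* 2.35 and *Fgd5* 2.23 CPM on average.

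The 13 programmes fell into an order in which late and primary granule genes came first and resident macrophage genes last. Each sum depends on which and how many genes a list holds. Without the highest member of each list the late granule sum was 8610 CPM, of which *S100a9*, whose product is not a granule protein, held 3682 CPM, and the primary granule sum, without *Mpo*, was 5713 CPM and came after G2/M (8461 CPM), stem and progenitor (7122 CPM), S phase (6134 CPM) and monocyte genes (5822 CPM). Of the 12 neighbouring pairs in the order of the full sums, 6 had ranges over the mice that did not overlap and 6 overlapped. The largest step lay between the eosinophil, basophil and mast cell list and the dendritic list, 1.89-fold. The granulocytic and monocytic sums were 5943 CPM or more in every mouse, and the erythroid, megakaryocyte, early B and macrophage sums were 2016 CPM or less.

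**Figure D2:**
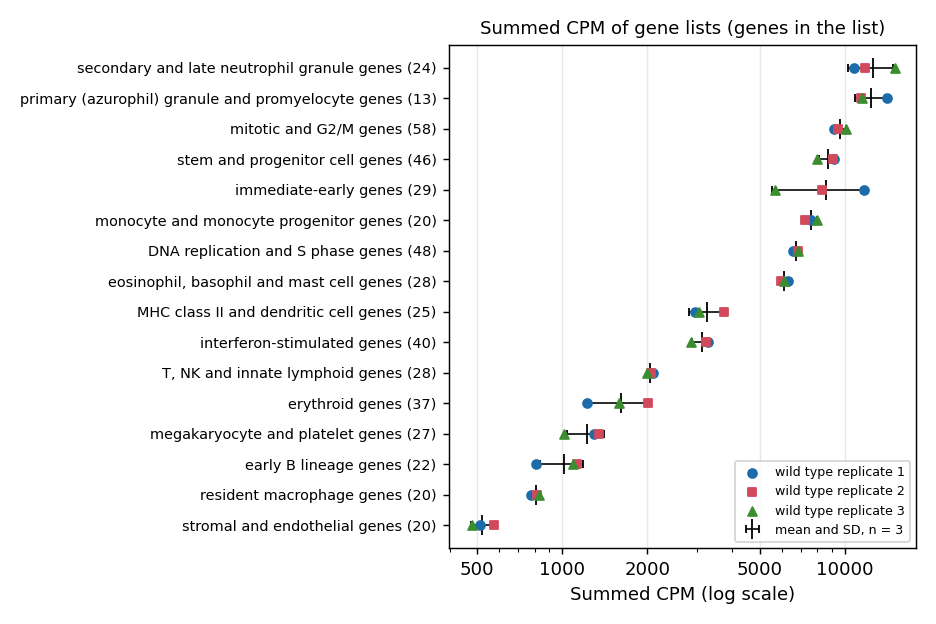
Summed CPM of lineage, cell cycle and state gene lists on a log axis, with the number of genes in brackets, a point for each wild type mouse and a bar for the mean and SD (n = 3). Late and primary granule genes lie highest, immediate-early genes spread from 5687 to 11732 CPM, and stromal and endothelial genes lie lowest.

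Of 14 genes of antigens that mature marrow cells carry, 12 had a mean of 40.6 CPM or less. The highest of the 12, *Ly6g*, ranked 4951 by mean CPM among the 25033 symbols, so most symbols also lay at or below that level. No undepleted marrow was set beside these values, which therefore do not check the depletion. In the granulocyte and myeloid group, *Ly6g* had 40.6 CPM and *Itgam* (CD11b) 38.5 CPM. In the lymphoid group, *Cd4*, *Ncr1*, *Cd8a*, *Cd3e*, *Ms4a1* (CD20) and *Cd5* lay between 11.1 and 27.2 CPM. *Adgre1* (F4/80) of the macrophage and *Ly6c1* had 11.3 and 6.36 CPM. The exceptions were *Ptprc* (CD45), carried by nearly all blood cells, with 288 ± 10.6 CPM, and *Ly6c2*, with 1429 ± 62.4 CPM. *Ly6c2* shares 9.84% of the 75-base stretches at its 3' end with other genes. Stromal and endothelial genes were at the bottom, with 4 of 20 genes at 10 CPM or more in every mouse. *Vcam1* and *Pecam1* (179 ± 27.4 CPM), which blood cells also transcribe, were followed by *Col1a1*, *Cxcl12*, *Pdgfrb* and *Col1a2*, between 16.6 and 21.5 CPM, and the osteocalcin gene *Bglap2* had no read.

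Of 394 transcription factor genes examined, 277 stood at 10 CPM or more in every mouse, 57 at 100 CPM or more, and 21 had no read. Among the latter were *Adnp*, *Ctcfl*, *Ebf2*, *Fev*, *Fosl1*, *Gata4*, *Gata6*, *Gli1*, *Hoxa6*, *Hoxb8*, *Hoxd9*, *Klf15*, *Ldb2*, *Meis2*, *Ppara*, *Snai2*, *Sox18*, *Tead4*, *Trp63* and *Wt1*, many of them known from other tissues. Together they took 2.92% of the CPM. *Irf8*, which directs progenitors toward monocytes and dendritic cells, was the highest, at 1558, 1629 and 1597 CPM (1595 ± 35.7, SD, n = 3), and its spread beyond counting was a CV of only 1.77%. It was the only factor of the 30 highest whose range over the mice lay clear of the next one, and the other 28 neighbouring pairs overlapped. Next came the AP-1 genes *Jun*, with 1501, 1229.8 and 733 CPM, and *Fos*, with 1192, 714 and 497 CPM, both highest in replicate 1 and lowest in replicate 3. *Myb*, required for definitive progenitors to divide, had 848, 779 and 735 CPM and *Tcf4* was the fifth.

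The 30 highest factors mixed progenitor and blood development, immediate-early, stress response and other genes. Progenitor and blood development factors in this group were *Ikzf1* (428 ± 49.4 CPM), *Sox4* (386 ± 15.97 CPM), *Fli1*, *Lmo4* (404 ± 91.5 CPM), *Foxp1* (519 ± 15.8 CPM), *Bcl11a* (232 ± 14.6 CPM), *Runx2* and *Cbfb* (255 ± 54.6 CPM), the partner of the Runx proteins. *Foxp1*, *Sox4*, *Runx2* and *Bcl11a* had a CV beyond counting of 5.21% or less. The immediate-early genes *Egr1*, *Klf2*, *Fosb*, *Klf6* and *Junb* had means from 393 to 532 CPM and were higher in replicate 1 than in replicate 3. The stress response factors *Atf4*, *Xbp1* and *Atf6b* had 396, 390.2 and 225 CPM. The rest were *Usf2* (541 CPM), *Id2*, the interferon response factor *Irf1* (283 CPM), *Sp1*, *Max*, *Stat3*, *Zbtb7a*, *Klf13* and *Yy1*, all between 227 and 541 CPM.

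Classical lineage regulators ranked lower among the factors. *Gata2*, of stem cells and basophils, had 183, 286 and 206 CPM and ranked 31. *Spi1* (PU.1), required for myeloid and B cells, had 177, 167 and 175 CPM and ranked 44, with no spread beyond counting. *Runx1*, *Gfi1* and *Cebpa*, the last of which opens the granulocytic programme, had 159 ± 19.8, 128 ± 13.5 and 119 ± 21.9 CPM. *Cebpe*, which acts at the later switch to secondary granule genes, had 42.2, 72.6 and 30.1 CPM, with replicate 2 highest and replicate 3 lowest. *Tal1*, *Hoxa9* and *Meis1*, factors of the stem and progenitor state, had 50.6 ± 12.2, 48.7 ± 4.30 and 42.5 ± 6.34 CPM. *Pax5* ranked 160, *Gata1* 238, *Ebf1* 275 and *Klf1* 306.

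**Figure D3:**
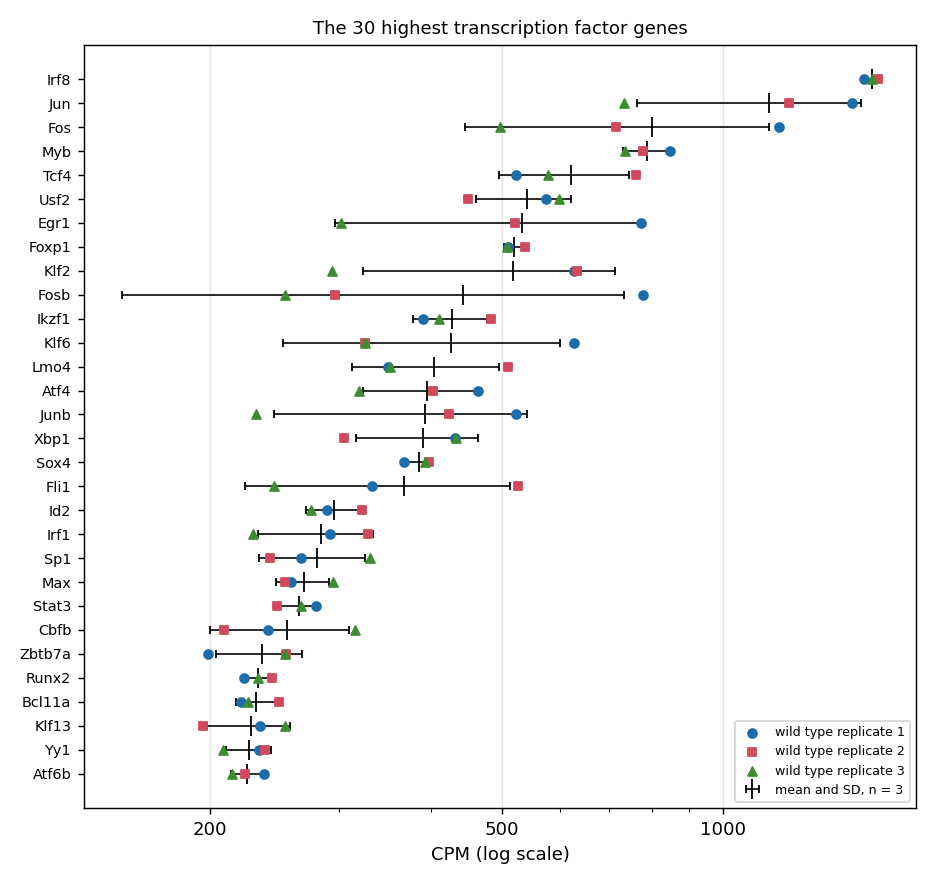
CPM of the 30 highest transcription factor genes on a log axis, with a point for each wild type mouse and a bar for the mean and SD (n = 3). *Irf8* lies clear of the rest at 1558 to 1629 CPM, whereas *Jun*, *Fos*, *Egr1*, *Fosb* and *Junb* run from replicate 1 on the high side to replicate 3 on the low side, and *Klf6* is high in replicate 1 alone.

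Cytokine receptor genes were present at modest levels, with 25 of 30 at 10 CPM or more in every mouse. The interferon gamma receptor gene *Ifngr1* was highest at 459 ± 109.95 CPM, followed by *Il17ra* (253 ± 36.4 CPM), *Ifnar2* (246 ± 36.6 CPM) and *Csf2rb* (203 ± 31.2 CPM), the common beta chain that serves IL-3, IL-5 and GM-CSF. The TNF receptor gene *Tnfrsf1a*, at 163 CPM, and *Kit*, given above, completed the first 6. The receptors of lineage growth factors, chosen after their values were seen, went from *Csf1r* at 103 ± 23.6 CPM through *Csf3r* at 20.1 ± 2.65 and *Il3ra* at 15.7 ± 2.99 to *Epor* at 7.98 ± 1.90 CPM. Of 29 progenitor surface and homing genes, 28 reached 10 CPM in every mouse, led by *Cd63* (845 ± 142 CPM), *Cd93*, *Cd47* (634 ± 71.4 CPM), *Cd52* (572 ± 179 CPM), *Spn* (CD43, 563 ± 54.9 CPM) and the selectin ligand gene *Selplg* (501 ± 39.3 CPM).

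Genes of the cell cycle were abundant. The 48 DNA replication and S phase genes summed to 6567, 6825 and 6862 CPM (6752 ± 161, SD, n = 3) and the 58 mitotic and G2/M genes to 9169, 9478 and 10137 CPM (9595 ± 494), with 44 and 55 members at 10 CPM or more in every mouse. The log2 ratio of S phase over G2/M sums was -0.51 ± 0.05, nearly equal in the 3 mice. *Lig1*, the ligase of Okazaki fragments, led the S phase list at 639, 573 and 640.4 CPM, followed by the helicase genes *Mcm6* (509 ± 92.3 CPM), *Mcm3* (409 ± 13.8 CPM), *Mcm7* (387 ± 49.99 CPM) and *Mcm5* (364 ± 52.6 CPM) and the dUTPase gene *Dut* (369 ± 75.7 CPM). The G2/M list was led by the tubulin gene *Tuba1b* (1187, 897 and 1316 CPM), the topoisomerase gene *Top2a* (616, 636 and 753 CPM) and *Birc5*, *Cks1b*, *Cdk1* and *Ncapd2*, between 375 and 492 CPM. Replicate 1 was highest for 4 of 56 G2/M genes of mean 10 CPM or more and lowest for 27, beside 26.2% and 31.6% of all genes of that level.

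Motifs known from cell cycle promoters were counted in both lists. The E2F letters TTTNGCGC, where N is any base, were in 12 of 39 S phase windows against 1.96% of all genes, and the cell cycle homology region (CHR) letters TTTGAA were in 37 of 50 G2/M windows against 17.6%, both counted on both strands of the 300 bases. CCAAT was in 36 of 50 G2/M windows against 42.1% of all genes, and was as frequent in the chaperone list (19 of 25). *Mcm6* (chr1:128359696-128359815, minus strand) and *Rfc3* (chr5:151651199-151651318, minus strand), a clamp loader gene, are shown for E2F, and *Top2a* (chr11:99024180-99024299, minus strand) and *Cks1b* (chr3:89418282-89418401, minus strand), a partner gene of cyclin-dependent kinases, for the CHR, with the motif of each list in capitals on either strand and the last 10 bases inside the transcript.
Mcm6: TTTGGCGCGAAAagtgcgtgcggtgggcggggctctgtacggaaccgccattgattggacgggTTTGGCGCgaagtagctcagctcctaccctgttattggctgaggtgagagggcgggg
Rfc3: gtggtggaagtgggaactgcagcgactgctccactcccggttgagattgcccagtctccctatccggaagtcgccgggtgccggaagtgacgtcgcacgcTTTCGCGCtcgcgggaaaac
Top2a: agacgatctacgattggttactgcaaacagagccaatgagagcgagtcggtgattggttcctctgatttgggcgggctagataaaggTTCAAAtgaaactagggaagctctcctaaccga
Cks1b: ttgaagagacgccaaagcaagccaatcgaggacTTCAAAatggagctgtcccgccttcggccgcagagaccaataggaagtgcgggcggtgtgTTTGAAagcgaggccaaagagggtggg
*Mcm6* held 3 matches, of which a pair on opposite strands overlap, and *Cks1b* held 2. In *Rfc3* the match began at position -10 and in *Top2a* at -23.

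Ribosomal protein genes made the largest sum of all the lists. The 79 cytosolic ribosomal protein genes summed to 112485, 113504 and 105644 CPM, or 11.1% of the total, and 72 of them stood at 100 CPM or more in every mouse. The translation factor list (38 genes) held 2.21%, the nuclear-encoded oxidative phosphorylation list (77 genes) 2.05%, the actin cytoskeleton list (26 genes) 2.71%, the chaperone list (31 genes) 1.82%, the proteasome list (32 genes) 0.685%, the histone list (10 genes) 0.432% and the glycolysis list (19 genes) 0.221%. Ribosomal protein genes exceeded oxidative phosphorylation genes by a log2 ratio of 2.43 ± 0.07 (SD, n = 3) of the sums. Leading members were *Eef2* (2245 ± 17.99 CPM), the elongation factor 2 gene, *Atp5g3* (1409.7 ± 188 CPM) of the ATP synthase, *Hsp90ab1* (3946 ± 362 CPM), the endoplasmic reticulum chaperone gene *Hspa5* (2592 ± 485 CPM), the proteasome gene *Psma2* (614 ± 107 CPM), the variant histone gene *H2afy* (1736 ± 126 CPM) and the glycolytic gene *Gpi1* (442 ± 22.2 CPM). *Eef2* varied least of these, with 2263, 2227 and 2243 CPM. After them came *Eef1b2*, *Pabpc1*, *Eef1a1* and *Eif4g2* of translation (1339 to 1833 CPM), *Atp5a1*, *Uqcrh*, *Atp5b*, *Atp5o* and *Atpif1* of the mitochondrion (589.6 to 912 CPM) and the chaperone genes *Calr*, *Hsp90b1*, *Hsp90aa1* and *Npm1* (869.8 to 1448 CPM). The actin list went on with *Arpc2*, *Arpc1b*, *Lcp1* and *Cdc42* (634 to 1131 CPM), and the proteasome list with *Psmb4*, *Psma7*, *Psmb3*, *Psmb1* and *Psmd8* (378 to 571 CPM). *H3f3b*, *H2afv*, *H2afx*, *H2afz* and *H3f3a* of the histones spanned 84.97 to 1309 CPM, and *Pkm*, *Ldha*, *Aldoa*, *Hk1* and *Tpi1* of glycolysis 155 to 345 CPM. The glycolysis share includes *Gapdh* and *Eno1* (12.5 CPM), the latter also chosen after its value was seen, whose 3' ends are shared with other genes over 73.9% and 85.7% of their 75-base stretches, and 33 of the 79 ribosomal protein genes shared 50% or more, so levels in these lists are uncertain.

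Ribosomal protein messages are known to begin with a C followed by a run of pyrimidines. The letters CTTT on the gene's strand between 5 bases before and 9 bases after the start were in 14 of 58 ribosomal protein genes, against 5.59% of all genes and 4 of 12 long noncoding RNA genes. *Rplp2* (chr7:141447541-141447660, plus strand) and *Rps10* (chr17:27635235-27635354, minus strand) are shown as the highest members with a single window that holds it, with CTTT in capitals and the last 10 bases inside the transcript.
Rplp2: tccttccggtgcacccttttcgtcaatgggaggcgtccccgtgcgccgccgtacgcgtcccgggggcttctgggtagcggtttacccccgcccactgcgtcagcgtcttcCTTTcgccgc
Rps10: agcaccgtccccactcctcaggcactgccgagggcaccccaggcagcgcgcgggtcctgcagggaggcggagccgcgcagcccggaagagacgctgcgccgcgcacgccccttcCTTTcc
The CTTT letters, the start tract match, began at position 1 in *Rplp2* and at position 5 in *Rps10*. In *Rps10* all of the last 10 bases are pyrimidines. *Rplp2*, a gene of the ribosomal stalk, had 4473, 5393 and 4233 CPM and *Rps10* 2246, 2816 and 2024 CPM in replicates 1, 2 and 3.

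**Figure D4:**
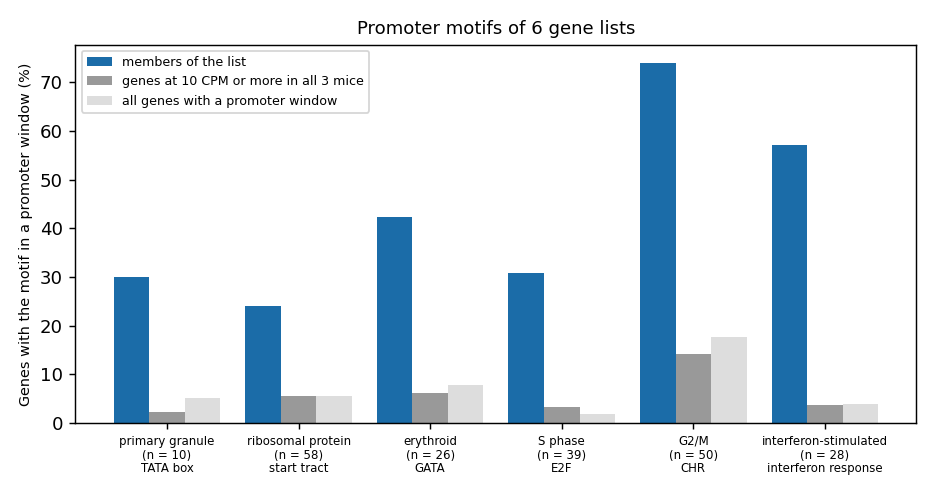
Share of genes (%) with a motif in a RefSeq promoter window, for 6 gene lists (number of members with a window in brackets), for genes at 10 CPM or more in every mouse and for all 18327 genes with a window. In each list the share lies above both others, from 24.1% of ribosomal protein genes with the start tract to 74.0% of G2/M genes with the CHR.

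Interferon-stimulated genes summed to 3272, 3226 and 2859 CPM over 40 genes (3119 ± 226, SD, n = 3). *Ly6e*, which stem and progenitor cells also transcribe, the immunoproteasome genes *Psmb8* (407 ± 41.3 CPM) and *Psmb9* (365 ± 31.1 CPM), *Ifitm3* (218 ± 31.9 CPM), *Trim30a* (201 ± 30.4 CPM) and *Trim25* (151 ± 22.8 CPM) led the list. Genes that rise steeply under interferon, chosen after their values were seen, were lower, with *Ifit1* at 4.93 ± 1.67 CPM, *Mx1* at 9.53 ± 3.62 CPM and *Isg15* at 17.7 ± 3.42 CPM. The interferon response motif was in the promoter windows of 16 of 28 genes of the list, against 3.92% of all genes. *Igtp* (chr11:58199446-58199565, plus strand), a GTPase gene, and *Isg15* (chr4:156200809-156200928, minus strand), a ubiquitin-like modifier gene, carry it in capitals.
Igtp: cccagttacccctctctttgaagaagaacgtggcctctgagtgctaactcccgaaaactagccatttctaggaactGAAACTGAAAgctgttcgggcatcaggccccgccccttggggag
Isg15: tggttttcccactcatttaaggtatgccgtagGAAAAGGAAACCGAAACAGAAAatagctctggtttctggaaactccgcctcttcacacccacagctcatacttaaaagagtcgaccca
*Igtp*, with 46.7, 57.8 and 28.8 CPM, held a single match at position -34, and *Isg15*, with 16.2, 21.6 and 15.3 CPM, held 3 overlapping matches.

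The HDGF family and the MLL complex genes that the study is about spanned a wide range of levels. *Hdgf* had 649 ± 32.7 CPM, *Kmt2a* (MLL) 154 ± 8.11, *Psip1* (LEDGF/p75) 105 ± 9.37, *Men1* (menin) 71.00 and *Hdgfl2* (HRP-2) 53.5 ± 3.69 CPM, with *Hdgfl3* at 17.97 ± 2.16 CPM and *Hdgfl1* listed at 0; the MLL partner genes *Mllt1* and *Mllt3* had 37.3 ± 6.79 and 24.99 ± 2.23 CPM. Long noncoding RNA genes were led by *Malat1* (2203, 1470.3 and 1832 CPM), *Gas5* (1351, 1101 and 1168 CPM) and *Neat1* (1071, 603 and 517 CPM), of which *Gas5* hosts small nucleolar RNAs and *Neat1* scaffolds nuclear paraspeckles, followed by *Snhg8* (408 CPM), *Xist* (281 CPM) and *Snhg1* (251 CPM).

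The spread between the 3 mice was modest for most genes and largest in a few programmes. Over genes with at least 10 reads in every library, the common biological coefficient of variation estimated by edgeR was 19.1%. It was 15.7% without replicate 2 and 21.2% without replicate 1. For the 4274 genes of mean 50 CPM or more, the median CV beyond counting, which tends to come out low with 3 mice, was 11.6%, and it exceeded 30% in 5.85% of them. Immediate-early genes stood apart in this respect, with 16 of 21 above 30% and a median of 37.5%. Erythroid genes had a median of 26.3% (7 genes), late granule genes 23.9% (15 genes) and early B genes 21.1% (8 genes), while T, natural killer and innate lymphoid genes had 7.71% (9 genes).

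Immediate-early genes, which are transcribed within minutes of many stimuli, summed to 11732, 8291 and 5687 CPM in replicates 1, 2 and 3 over 29 genes (8569.9 ± 3032, SD, n = 3). Of the 26 of mean 10 CPM or more, 22 were highest in replicate 1 and 22 lowest in replicate 3, beside 26.2% and 29.8% of all genes of that level. The NF-kappaB inhibitor gene *Nfkbia* had 1382, 715 and 708 CPM, the AP-1 gene *Fosb* 777, 297 and 254 CPM, *Egr1* 774, 521 and 302 CPM and the growth-response gene *Ier5* 637, 557 and 463 CPM. The phosphatase gene *Dusp1* had 699, 504 and 194 CPM. The *Rn45s* shares of the libraries were 11.8%, 20.6% and 9.43%, and their part in this difference was not tested.

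The 12 genes of largest spread among those of mean 50 CPM or more held immediate-early and stress genes beside genes of metabolism. *Erdr1*, which has no entry in GENCODE M21, had 129, 33.6 and 3.13 CPM and *Pigt*, of the GPI anchor pathway, 76.8, 6.13 and 72.7 CPM, so that a single mouse set the spread of *Pigt*. The heat shock gene *Hspa1a* had 99.2, 17.8 and 57.3 CPM and the NF-kappaB feedback gene *Tnfaip3* 148, 43.3 and 57.3 CPM. *Slc35b2*, *St3gal4*, *Hmgxb3* and *Hyou1* were all highest in replicate 2 and lowest in replicate 3, with CVs beyond counting from 52.9% to 63.6%. *Fosb* and *Dusp1*, described above, and the sulfotransferase gene *Chst1* (149, 105 and 42.3 CPM) were also among the 12.

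**Figure D5:**
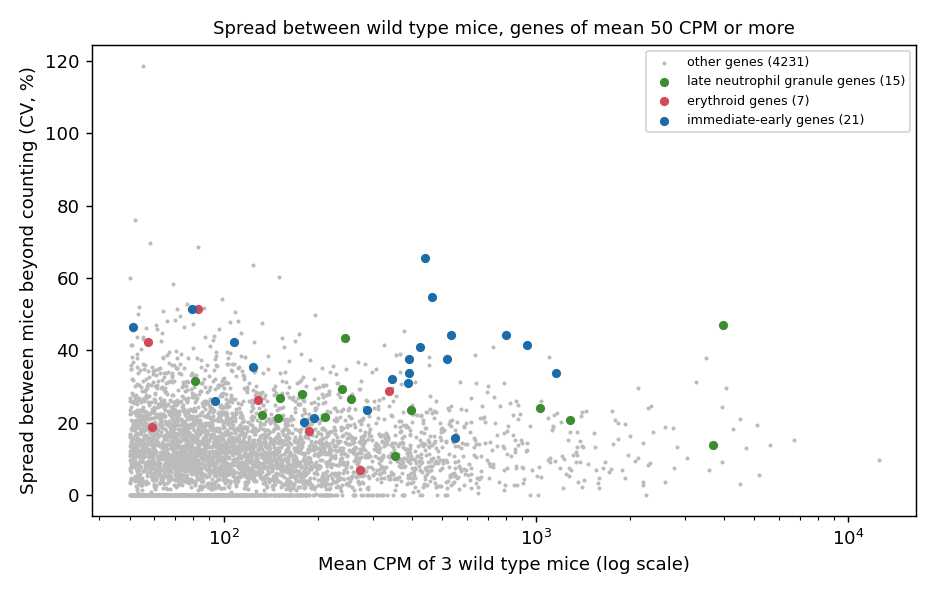
Spread between the 3 wild type mice beyond counting (CV, %) against mean CPM on a log axis, for the 4274 genes of mean 50 CPM or more, with immediate-early, late neutrophil granule and erythroid genes in colour. Most genes lie below 30%, and 16 of the 21 immediate-early genes lie above it.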

How the data were processed

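RNA (500 ng per sample) of wild type lin- marrow was sequenced as 3' end libraries with 75 bp single reads. According to the methods and the submitters' processing notes, the authors aligned reads to GRCm38 and counted them per gene with STAR on an Ensembl annotation, but the files close with tally lines in the form of another counter, with 0 reads listed as not uniquely aligned, so how reads with several matches were treated is uncertain. The deposited files hold raw integer counts, listed by gene symbol; the strand counted is not given in the sources used here, and overlapping or antisense genes are uncertain. Tally lines for reads on no gene (27.6% to 30.3% of the reads) and ambiguous reads were left out, as was *Rn45s*. CPM were computed from the remaining reads on genes in Python 3.11.15 with pandas 2.3.3. Mean and SD are over 3 mice. The CV beyond counting is the square root of the variance of CPM less its Poisson part, set to 0 where negative. edgeR 4.0.16 in R 4.3.3 gave the common dispersion with TMM factors; the estimators were tested on simulated data. No comparison was tested, since there is 1 group of 3.

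Genes named were the 25 highest outside housekeeping lists, the 10 highest of all, the 30 highest transcription factors, the 6 highest of every other list, members without a read, depletion antigens, the HDGF family, the 12 genes of largest spread, and fixed blood regulators. Some genes that meet it are not reported here. Genes outside this rule are said to be chosen after their values were seen. The 6 of smallest spread could not be named, because 504 genes tied at 0. Members and the 31 lists were chosen, by hand, with earlier results of these data known, and the motifs shown were picked, after the data were seen, from 12 searched in all lists. Coordinates are of GENCODE M21 (GRCm38), which holds 97.6% of the symbols, and promoter sequences of the RefSeq table (GRCm38.p6, 18327 matched symbols, any window of a gene counted). Mitochondrially encoded genes were not analysed here.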

Additional observations from a re-analysis of the deposited data

How the results depend on the processing

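The log2 ratio of primary over late granule sums, a mean of -0.01 over the 3 mice, changed sign when replicate 3 was left out (0.17) and was -0.21 without replicate 1. No other ratio changed sign under the alternatives run. With TMM sizes, the list sums and transcription factor means moved by less than the SD between mice, and ratios within a library cannot change. The median over mice in place of the mean, or leaving out any 1 mouse, also moved values by less than that SD. With 3 mice such a shift is always below 1 SD, so it does not show that the values are stable. The number of genes at 10 CPM or more in every mouse was 8208 to 8469 under these settings. The number of genes in every mouse depends on the level asked for, 8234 at 10 CPM, 1921 at 100 CPM and 85 at 1000 CPM. With *Rn45s* kept in the total, the 100 highest genes held 32.7% of the CPM in place of 21.9%, and 23 of 29 list sums and 14 of 30 transcription factor means moved by more than 1 SD. Keeping it scales all other genes of a library down alike, so these counts reflect only how small the SD of each value is. Without the highest member of both lists, which leaves *S100a9* in the late sum, the log2 ratio of primary over late granule sums was -0.58 in place of -0.01. That of primary granule over erythroid sums was 2.19 in place of 2.97, and 27 of 29 list sums moved without their highest member. No symbol is mitochondrially encoded, so leaving those genes out was not run.

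No paired analysis was possible because a single genotype is described and no result comes from a test. With 3 mice, a difference between mice has no replicate of its own. Depth limits genes near the floor of 3 reads, and levels of genes with shared 3' ends are uncertain at any depth.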
